A study of Mus musculus with 45 samples.

Results

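The 10 genes described here (Ppic, Srgn, Ptpn7, Gypc, Evc, Evc2, Pcdh7, Pir, Epb41l4a and Fbp2) had few or no reads in mouse mammary tumour lines named MYAZ and were expressed in the line Myc310 and in its lung-metastasis derivatives. They are 10 of the 28454 genes in the count table, and they were chosen by that pattern in these counts, so their difference between MYAZ and the Myc310 lineage is described without a test. Messenger RNA was sequenced from 45 libraries of 11 lines in 15 groups, with 3 wells per group. All lines carry the Myc oncogene under the mammary promoter of the mouse mammary tumour virus (MMTV-cMYC). MYAZ16.1e, MYAZ12.3i and MYAZ6.6g come from mammary tumours, MYAZ12.3i-NDI1 is MYAZ12.3i expressing NDI1, the yeast NADH dehydrogenase, and Myc310 is a single line from a mouse with multiple tumours. LM1, LM2 and LM3 were grown out of lungs after Myc310 cells had been injected into the mammary fat pad, and LM1-LM, LM2-LM and LM3-LM belong to a second round through the lung that started from LM1. Cells were seeded at 250000 per well, and 24 h later the medium was replaced for 6 h with control medium or, for Myc310, LM1, LM1-LM and MYAZ16.1e, with medium free of cysteine and cystine (below, cystine deprivation). The whole Myc310 lineage goes back to 1 line, so MYAZ and the lineage differ in tumour of origin as well as in metastatic behaviour, and these cannot be told apart.

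Cystine is the oxidised dimer in which cells take up most of their cysteine, the amino acid that limits glutathione synthesis. The 10 genes belong to unrelated families. Evc and Evc2 encode the partner proteins of a complex at the base of the primary cilium that relays Hedgehog signals from Smoothened to the Gli transcription factors. Pcdh7 is a protocadherin, a cell adhesion protein. Gypc encodes glycophorin C, which tethers the membrane to the spectrin skeleton through band 4.1 proteins, and Epb41l4a encodes a band 4.1-like protein. Ptpn7 is a tyrosine phosphatase of MAP kinases and Srgn is serglycin, a proteoglycan of secretory granules, and both are best known from blood cells. Ppic is cyclophilin C, a prolyl isomerase. Pir is pirin, an iron-binding nuclear protein and a known target of the oxidative stress factor NRF2, and Fbp2 is the muscle form of fructose-1,6-bisphosphatase, an enzyme of gluconeogenesis.

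In the 15 MYAZ libraries, 118 of the 150 values of the 10 genes were 0, and the 10 genes together had 201 counts there against 339748 counts in the 30 libraries of the Myc310 lineage. Ppic, Evc, Evc2, Pcdh7 and Pir had no count in any MYAZ library. Fbp2 had 1 count in a single MYAZ6.6g well, Gypc and Epb41l4a had at most 3 counts in any MYAZ library, and Srgn had at most 4. Ptpn7 was the exception to silence in MYAZ, with 5 to 21 counts in every library. In the lineage the lowest count of any of the 10 genes in any library was 68, for Pcdh7 in a deprived LM1 well. Library depth did not separate the groups: 19517859 to 29019988 counts were assigned to genes per MYAZ library (median 23174191) and 19521444 to 28188741 in the lineage (median 22895260). MYAZ12.3i-NDI1 had the same pattern as the other MYAZ lines, with 0 to 1 counts per library for Srgn and Gypc, 0 to 3 for Epb41l4a, 9 to 21 for Ptpn7 and 0 for the other 6 genes.

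The pooled levels, in TMM-scaled counts relative to library size (CPM) over all 30 lineage and all 15 MYAZ libraries, give the size of the contrast. Where MYAZ had no count, the fold is a lower bound set against a floor of 3 counts over the whole MYAZ group. Ppic was at least 14599-fold higher in the lineage (124 CPM), Evc2 at least 3229-fold (27.3 CPM), Evc at least 2404-fold (20.4 CPM), Pcdh7 at least 1737-fold (14.7 CPM) and Pir at least 1028-fold (8.70 CPM). For the other genes a ratio with its exact 95% counting interval can be given. The ratio was 12854 for Fbp2, resting on 1 count in MYAZ (interval 2307 to 507715), and 2523 for Srgn (1475 to 4738). The Fbp2 count lies under the floor of 3 counts, so its ratio cannot be ranked against the lower bounds. For Gypc the ratio was 2031 (933 to 5534), resting on 6 MYAZ counts, 3 of them in 1 deprived MYAZ16.1e well. For Epb41l4a it was 1545 (750 to 3844), resting on 7 MYAZ counts, 3 of them in 1 MYAZ12.3i-NDI1 well. For Ptpn7, with 174 MYAZ counts, it was 220 (190 to 257). The lineage level of Epb41l4a depends on the libraries pooled, at 30.5 CPM with the deprived libraries and 20.1 CPM in control libraries only. These intervals cover counting error only, and reads from PCR-amplified libraries without molecular identifiers are not independent molecules. In such bulk libraries, fewer expressing cells and less RNA per cell cannot be told apart.

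**Figure D1:**
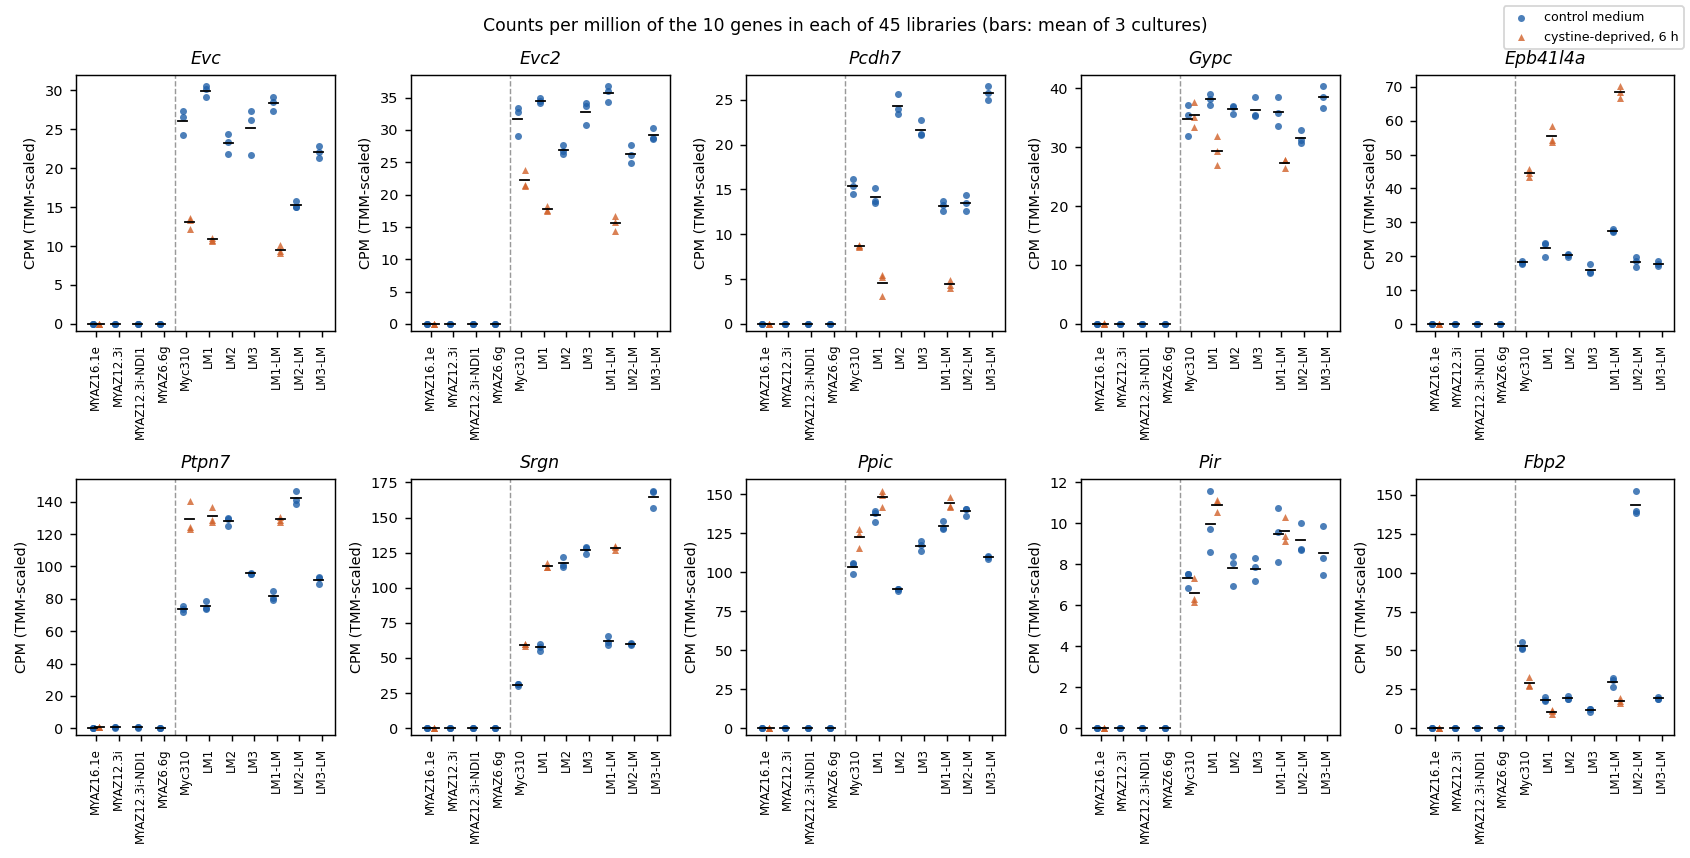
Level of the 10 genes in CPM (linear axes, 1 panel per gene) in every library, by line, with control medium as circles, 6 h of cystine deprivation as triangles and the mean of 3 wells as bars; the dashed line separates the MYAZ lines from the Myc310 lineage. All points left of the line lie below 1 CPM, LM2-LM stands apart for Fbp2 at 144 CPM, and deprived wells lie above control wells for Epb41l4a and Srgn and below them for Evc, Evc2 and Pcdh7.

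A numerical version of the pattern, at most 3 counts in each MYAZ library and at least 1 CPM in each lineage library, was met by 21 genes (0.0777% of the 27016 genes with a count), among them 8 of the 10. Gypc and Epb41l4a lie just inside it with 3 counts in 1 MYAZ library each, Srgn lies just outside it with 4 counts in 1 MYAZ6.6g well, and Ptpn7 misses it in all MYAZ libraries. Ppic had the highest level of the 21 genes, followed by Tmem47, Zfhx4 and Tfpi. The mirror pattern, at most 3 counts in each lineage library and at least 1 CPM in each MYAZ library, was met by 29 genes (0.107%). Levels per kilobase were taken over the merged length of all exons of a gene in the GENCODE annotation. Transcripts may use only part of that length, so the comparison between genes is rough. On this scale the lineage levels in control medium were highest for Ppic (83.9 CPM per kb) and Srgn (40.4), intermediate for Fbp2 (28.7), Ptpn7 (16.12) and Gypc (15.4), and lowest for Evc2 (5.32), Evc (3.15), Epb41l4a (2.21), Pcdh7 (1.72) and Pir (1.55).

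Evc and Evc2 are the only members that are neighbours in the genome. They lie head to head on chromosome 5 (GRCm38), Evc at chr5:37289098-37336894 on the minus strand and Evc2 at chr5:37338499-37425055 on the plus strand, so that 1605 bases separate their annotated starts. Crmp1, which overlaps Evc on the opposite strand, had 226 counts in all 45 libraries together, from strand-specific libraries. The 250 bases before the RefSeq start of each gene (GRCm38.p6) are shown because the pair lies head to head. Silence in MYAZ and expression in the lineage chose all members, so they do not set this pair apart. Cystine deprivation lowered both genes, but it also lowered Pcdh7 and Fbp2 in the same lines. Capitals mark CG dinucleotides, of which each stretch holds 11, against a median of 6 (quartiles 2 and 16) over the 32851 promoter windows of the same length in the RefSeq table.

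Evc, chr5:37336882-37337131, minus strand: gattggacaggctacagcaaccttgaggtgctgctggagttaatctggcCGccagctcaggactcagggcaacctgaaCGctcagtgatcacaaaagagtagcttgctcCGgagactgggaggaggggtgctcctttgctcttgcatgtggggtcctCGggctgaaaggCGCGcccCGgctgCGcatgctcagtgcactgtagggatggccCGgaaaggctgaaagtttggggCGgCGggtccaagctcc

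Evc2, chr5:37338228-37338477, plus strand: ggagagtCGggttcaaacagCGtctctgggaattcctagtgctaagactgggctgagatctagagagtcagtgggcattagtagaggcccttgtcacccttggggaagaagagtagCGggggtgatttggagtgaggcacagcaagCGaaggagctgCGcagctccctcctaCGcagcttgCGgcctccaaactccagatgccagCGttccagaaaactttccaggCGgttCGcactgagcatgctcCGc

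In control medium Evc measured 26.5, 24.3 and 27.3 CPM in the 3 Myc310 wells and Evc2 measured 32.8, 29.04 and 33.5 CPM. LM1 held 29.1, 30.2 and 30.5 CPM of Evc and 34.4, 35.0 and 34.2 CPM of Evc2. The lowest lineage line for both was LM2-LM, with 15.2 ± 0.421 CPM of Evc (SD, n = 3) and 26.2 ± 1.45 CPM of Evc2. For Evc the LM2-LM wells lay below those of every other lineage line, whereas for Evc2 they overlapped the LM2 wells (26.9 ± 0.694 CPM). The highest mean was in LM1 for Evc (29.9 ± 0.716 CPM) and in LM1-LM for Evc2 (35.7 ± 1.23 CPM), whose wells overlapped those of LM1. The ratio of Evc to Evc2 counts within a library was 0.820 ± 0.0144 in Myc310 and 0.866 ± 0.0232 in LM1, and it was 0.583 ± 0.0469 in LM2-LM.

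Cystine deprivation lowered both genes in all 3 lineage lines tested, with no overlap between deprived and control wells. In Myc310, Evc went to 13.3, 12.2 and 13.6 CPM (log2 fold change -1.01 ± 0.07 SE, edgeR adjusted p = 5.15e-13) and Evc2 to 23.8, 21.3 and 21.5 CPM (-0.53 ± 0.06, adjusted p = 4.76e-08). In LM1 the deprived wells held 10.7, 10.8 and 11.1 CPM of Evc (-1.43 ± 0.07, adjusted p = 3.48e-16) and 18.2, 17.7 and 17.4 CPM of Evc2 (-0.92 ± 0.07, adjusted p = 1.37e-12). LM1-LM showed 10.1, 9.33 and 9.17 CPM of Evc (-1.53 ± 0.07, adjusted p = 8.94e-17) and 15.7, 16.6 and 14.4 CPM of Evc2 (-1.16 ± 0.07, adjusted p = 1.12e-14). In Myc310 Evc thus fell by 50.3% and Evc2 fell by 30.7%, and in LM1-LM Evc fell by 65.4% and Evc2 fell by 55.2%. The ratio of Evc to Evc2 after deprivation was 0.589 ± 0.037 in Myc310 (0.820 ± 0.0144 in control medium). For LM1 it was 0.612 ± 0.0238 (0.866 ± 0.0232) and for LM1-LM 0.613 ± 0.0453 (0.793 ± 0.00264), without overlap of the wells in any line. In MYAZ16.1e both genes stayed at 0 in the deprived wells.

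The fall was steeper in LM1 than in Myc310. As an interaction in the same model, the response of LM1 minus that of Myc310 was -0.42 ± 0.10 for Evc (adjusted p = 0.00207) and -0.40 ± 0.09 for Evc2 (adjusted p = 0.00211). Pcdh7 and Gypc also passed with a lower response in LM1 than in Myc310, and no member passed with a higher one, so 4 of the 10 genes passed in 1 direction, against 9.96% of the 13400 tested genes in that direction and 14.5% in the other. The direction of the whole set of calls depends on the scaling, since 59.3% of the calls across all genes were higher in LM1 with TMM and 42.7% with upper-quartile scaling. The difference in response between LM1-LM and LM1 passed the test for 0 of the 10 genes in edgeR and for 0 in DESeq2 (0.328% of all genes had a higher and 0.44% a lower response in LM1-LM by edgeR). Evc2 and Ptpn7 had unadjusted edgeR p-values of 0.0198 and 0.0430.

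The other Hedgehog genes place the Evc pair in its pathway. Of 18 further Hedgehog genes listed, Shh, a ligand, had no count in any library. Line means of MYAZ are given here and below for MYAZ16.1e, MYAZ12.3i and MYAZ6.6g in control medium, without NDI1, and those of the lineage for its 7 lines in control medium. Both groups expressed Smo, the transducer Smoothened (200 to 247 CPM in the line means of MYAZ and 128 to 217 CPM in the lineage), Ptch1, the receptor and a standard target gene (59.6 to 78.0 and 72.7 to 85.0 CPM), and Iqce, which anchors the Evc complex in the cilium (13.4 to 23.7 and 16.7 to 22.6 CPM). Line means of the lineage lay wholly above those of MYAZ for 2 genes, where 12.6% of the 18616 genes above 3 counts in some library did so: Dhh, the Desert hedgehog ligand (1.57 to 9.91 CPM against at most 0.183 CPM), and Sufu, an inhibitor of Gli proteins. They lay wholly below for 7 genes, where 16% of those genes did so: the transcription factors Gli1, Gli2 and Gli3, the coreceptors Gas1, Cdon and Boc, and the decoy receptor Hhip. Gli2 reached 9.70 to 48.2 CPM in MYAZ lines and at most 0.343 CPM in the lineage, and Gli1 4.62 to 25.4 and 1.93 to 4.55 CPM. For Gli1 the groups lay close together: control wells of MYAZ16.1e held 3.51 to 5.63 CPM and overlapped those of LM2 (4.32 to 4.78 CPM), LM3 and LM3-LM.

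Of the 14 Hedgehog genes other than the Evc pair that could be tested, cystine deprivation lowered 7 and raised 4 in Myc310 (median log2 fold change -0.50, all tested genes -0.01), where 33.9% of all tested genes fell and 32.8% rose. The counts were 7 and 2 in LM1 (median -0.50) and in LM1-LM (median -0.52), where 35.3% and 35.9% of all genes fell and 35.8% and 36.5% rose. The filter on low counts took the deprived lines together, so the 14 include genes near the floor in some lines. Line means of Gli2 and Gas1 in the lineage reached at most 0.343 and 0.494 CPM, and Dhh had no count in the MYAZ16.1e control wells. The counts and medians include these genes. Smo changed by -0.94 ± 0.03 for Myc310, -1.23 ± 0.04 for LM1 and -1.38 ± 0.04 for LM1-LM, and Ptch1 by -0.80 ± 0.04, -1.08 ± 0.04 and -1.15 ± 0.04. Iqce fell as well (-0.64 ± 0.07, -0.88 ± 0.08 and -1.04 ± 0.08), as did Gli1 (-0.97 ± 0.23, -1.65 ± 0.27 and -1.97 ± 0.29) and Dhh (-1.27 ± 0.22, -2.502 ± 0.29 and -2.47 ± 0.35). All of these passed the threshold in each lineage line. Hhip (0.81 ± 0.31, 1.31 ± 0.31 and 1.55 ± 0.32) and Gpr161, a ciliary receptor that restrains the pathway (0.33 ± 0.04, 0.42 ± 0.04 and 0.36 ± 0.04), rose in the same 3 lines. Hhip was low there, with lineage line means of 0.322 to 1.16 CPM in control medium and at most 30 counts in any lineage library. Gpr161 had lineage line means of 39.5 to 60.4 CPM. The Hhip call in Myc310 was lost without the first wells (0.57, adjusted p = 0.243) or the third wells (0.93, adjusted p = 0.0534), without the filter on low counts (0.80, adjusted p = 0.05998) and when Myc310 was fitted alone (0.82, adjusted p = 0.0516). Among the other calls in Myc310, the rise of Boc was lost without the first wells (adjusted p = 0.144) and the fall of Cdon without the second or the third wells (adjusted p = 0.140 and 0.0553). The fall of Cdon in LM1-LM was lost without the second wells (adjusted p = 0.0530) and that of Sufu in LM1 without the first (adjusted p = 0.0507). In MYAZ16.1e, where Evc and Evc2 were silent, 3 of the 14 genes fell, among them Smo (-0.39 ± 0.03) and Ptch1 (-0.27 ± 0.04), and 2 rose, among them Gpr161 (0.24 ± 0.04), against 27.1% of all tested genes falling and 26.6% rising. The third fall, of Gas1, was lost when the wells of any 1 number were left out (adjusted p 0.0642 to 0.0907).

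**Figure D2:**
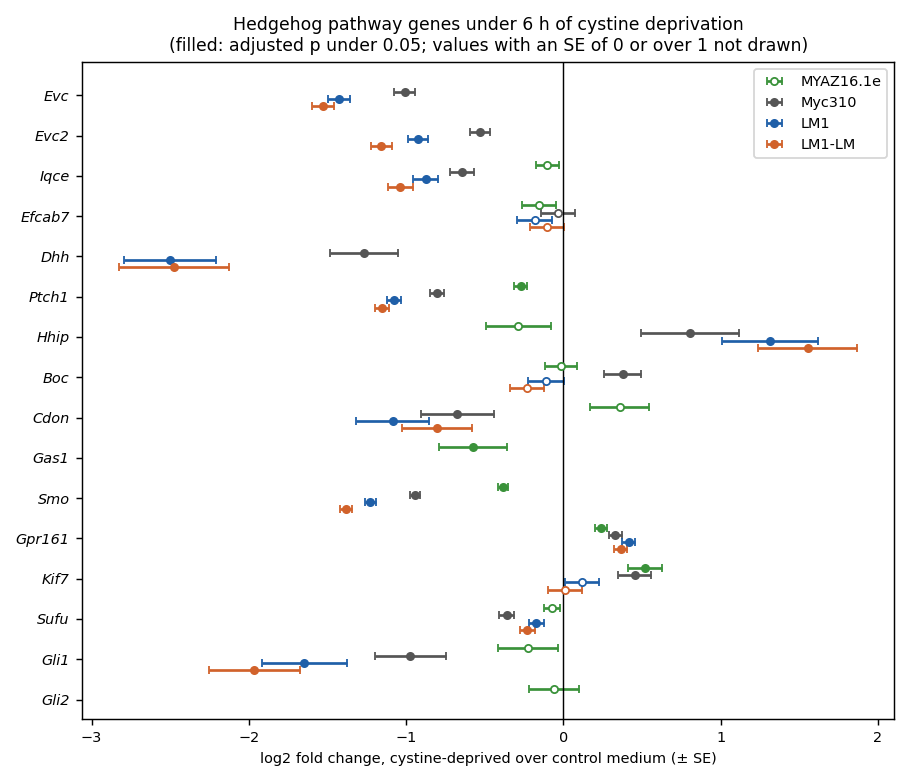
Log2 fold change of Hedgehog pathway genes after 6 h of cystine deprivation in 4 lines (points, with the standard error as bars; filled where the edgeR adjusted p was under 0.05, and values whose error was 0 or over 1 are not drawn). Evc, Evc2, Iqce, Dhh, Ptch1, Smo and Gli1 lie left of 0 in the 3 lines of the Myc310 lineage, and Evc and Evc2 have no MYAZ16.1e point because they had no counts there.

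Pcdh7 (chr5:57717967-58133230, plus strand) lies on the same chromosome, with its nearest protein-coding neighbours 3596910 and 3675586 bases away. With Evc it had the largest fitted falls of the 10 genes in LM1 and LM1-LM, whereas in Myc310 its fall was close to that of Fbp2 (-0.86), and differences between genes were not tested. Myc310 wells went from 14.4, 16.2 and 15.4 CPM to 8.73, 8.77 and 8.57 CPM (log2 fold change -0.83 ± 0.12, adjusted p = 7.64e-07). LM1 wells went from 13.5, 13.7 and 15.1 to 5.44, 3.11 and 5.29 CPM (-1.58 ± 0.13, adjusted p = 3.15e-11), and LM1-LM wells from 13.3, 13.7 and 12.6 to 4.05, 4.94 and 4.37 CPM (-1.54 ± 0.13, adjusted p = 5.16e-11). The response in LM1 was lower than that in Myc310 by 0.75 on the log2 scale (SE 0.18, adjusted p = 0.00259). In control medium the lines formed a lower set (LM1-LM 13.2, LM2-LM 13.5, LM1 14.1 and Myc310 15.3 CPM, neighbouring lines overlapping) and a higher one (LM3 21.7, LM2 24.3 and LM3-LM 25.7 CPM), with no well of one set inside the range of the other. Among 8 other non-clustered protocadherins, Pcdh1 was the most abundant, at 43.5 to 70.9 CPM in the line means of the lineage and 110 to 121 CPM in those of MYAZ, and Pcdh18 showed the opposite of the Pcdh7 pattern, at 6.01 to 12.5 CPM in MYAZ lines and at most 1 count in a lineage library.

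Pir and Fbp2 are shown with the 250 bases before their RefSeq starts because each holds 1 match to a motif of a factor relevant to these lines, searched on both strands. Capitals mark for Pir the reverse complement of TGACNNNGC, a core of the antioxidant response element bound by NRF2, which here overlaps the AP-1 element TGAGTCA, and for Fbp2 CACGTG, the E-box that Myc binds. Such matches occur in 10.2% and 6.02% of the 32851 windows. The windows of the other members matched in the RefSeq table (7 of 10 members in all, with Ptpn7, Evc, Evc2, Pcdh7 and Srgn) hold neither. Of 4 further motifs, GGGCGG (32.7% of all windows) was in Ptpn7 and Evc, CCAAT (33.8%) in Evc, TATAAA (12.4%) in 1 Srgn window and TGATGNAA (3.45%) in the other.

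Pir, chrX:164269181-164269430, plus strand: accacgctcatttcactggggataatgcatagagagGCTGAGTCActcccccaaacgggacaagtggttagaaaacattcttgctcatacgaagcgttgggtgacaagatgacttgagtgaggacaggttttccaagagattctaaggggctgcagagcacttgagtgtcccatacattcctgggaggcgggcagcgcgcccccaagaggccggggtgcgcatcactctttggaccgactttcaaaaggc

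Fbp2, chr13:62858401-62858650, minus strand: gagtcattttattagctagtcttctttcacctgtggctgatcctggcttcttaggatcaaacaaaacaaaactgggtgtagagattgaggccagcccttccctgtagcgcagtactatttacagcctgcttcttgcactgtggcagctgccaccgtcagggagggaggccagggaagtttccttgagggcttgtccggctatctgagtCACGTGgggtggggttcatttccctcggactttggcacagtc

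Pir (chrX:164269371-164373011, plus strand) was the least expressed member and the only one whose level did not pass the test in any of the 3 deprived lineage lines. Control wells of Myc310 held 7.53, 6.86 and 7.52 CPM, those of LM1 held 9.74, 8.58 and 11.6 CPM, and those of LM1-LM held 8.14, 9.56 and 10.7 CPM, and the deprived wells of each line overlapped them (adjusted p = 0.252, 0.205 and 0.643). All neighbouring lines overlapped in control medium, between 7.31 ± 0.384 CPM in Myc310 and 9.97 ± 1.52 CPM in LM1. Other NRF2 target genes did respond: Hmox1, heme oxygenase, rose by 3.03 ± 0.04, 3.85 ± 0.04 and 3.83 ± 0.04 on the log2 scale in Myc310, LM1 and LM1-LM, and Slc7a11, the cystine transporter, by 2.94 ± 0.05, 3.98 ± 0.05 and 3.93 ± 0.05. Nqo1 fell in Myc310, LM1 and LM1-LM (-0.53 ± 0.14, -0.48 ± 0.13 and -0.38 ± 0.12), and the Myc310 call was lost without the second wells (-0.39, adjusted p = 0.0789). Of 8 other genes in the list, 4 rose and 3 fell in Myc310 and 5 rose and 3 fell in both LM1 and LM1-LM, against 32.8% to 36.5% of all tested genes rising and 33.9% to 35.9% falling in these lines. Vegfd, whose annotated gene begins 367 bases beyond the end of Pir, was expressed in both groups, with line means in control medium of 9.05 to 10.2 CPM in MYAZ without NDI1 (8.67 CPM with NDI1) and 11.9 to 21.8 CPM in the lineage. In deprived wells it averaged 5.47 CPM in Myc310, 7.98 CPM in LM1 and 9.94 CPM in LM1-LM.

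Fbp2 (chr13:62836877-62858422, minus strand) varied most between lineage lines. Its control wells in Myc310 held 51.1, 51.7 and 55.3 CPM. The first-round lines held 17.8, 17.4 and 20.0 CPM in LM1, 18.5, 20.8 and 18.8 CPM in LM2 and 12.1, 10.2 and 12.4 CPM in LM3. The second-round lines held 30.8, 32.3 and 26.7 CPM (LM1-LM), 153, 138 and 140 CPM (LM2-LM) and 19.1, 19.9 and 18.7 CPM (LM3-LM). LM2-LM thus stood 12.4-fold above LM3, and its wells stood above all others, while Myc310 lay above the remaining 5 lines without overlap. Deprivation lowered Fbp2 in the 3 lines tested. Deprived Myc310 wells held 33.2, 27.6 and 27.3 CPM (-0.86 ± 0.08, adjusted p = 7.05e-10), deprived LM1 wells 9.29, 10.96 and 11.8 CPM (-0.75 ± 0.10, adjusted p = 3.62e-07) and deprived LM1-LM wells 19.6, 17.2 and 16.12 CPM (-0.72 ± 0.09, adjusted p = 7.08e-08). Fbp1, the liver form, lies 6331 bases away and had at most 3 counts in any library. Of the 11 other genes of the fructose bisphosphate list, 3 had lineage line means wholly above those of MYAZ and 1 wholly below, against 12.6% and 16% of all genes above 3 counts. Pfkp, a phosphofructokinase that drives the opposite, glycolytic step, was at 365 to 475 CPM in the lineage and 149 to 182 CPM in MYAZ.

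Gypc (chr18:32528322-32560034, minus strand) was the steadiest of the 10 genes across the lineage. Its line means in control medium ran from 31.6 ± 1.14 CPM in LM2-LM to 38.5 ± 1.81 CPM in LM3-LM, a 1.22-fold range in which 5 of the 6 neighbouring pairs overlapped. Deprivation left Myc310 at 35.1, 37.7 and 33.4 CPM against 35.5, 37.1 and 31.9 CPM in control medium (adjusted p = 0.933). LM1 went from 39.1, 38.1 and 37.1 to 29.4, 31.8 and 26.9 CPM (log2 fold change -0.34 ± 0.07, adjusted p = 1.05e-04) and LM1-LM from 38.6, 33.7 and 35.8 to 26.5, 27.8 and 27.9 CPM (-0.36 ± 0.07, adjusted p = 5.06e-05). The difference between the responses of LM1 and Myc310 was -0.35 ± 0.10 (adjusted p = 0.01), and it no longer passed without the first wells (-0.34, adjusted p = 0.0567) or the third wells (-0.30, adjusted p = 0.0911). Epb41, whose product band 4.1 binds glycophorin C, was expressed in both groups (55.5 to 91.3 CPM in MYAZ lines and 86.2 to 120 CPM in the lineage).

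Epb41l4a (chr18:33796327-34006966, minus strand) had the largest increase of the set. Myc310 wells held 17.8, 18.04 and 18.7 CPM in control medium and 43.5, 44.6 and 45.9 CPM after deprivation (log2 fold change 1.29 ± 0.06, adjusted p = 3.02e-17). For LM1 the values were 23.5, 19.8 and 24.0 CPM in control and 54.3, 53.6 and 58.3 CPM in deprived wells (1.34 ± 0.06, adjusted p = 3.26e-18). LM1-LM moved up from 27.4, 27.1 and 28.1 CPM, reaching 70.1, 68.6 and 66.7 CPM (1.35 ± 0.05, adjusted p = 6.22e-19). All deprived wells lay above all control wells of the lineage, the 3 responses were 2.44-fold, 2.54-fold and 2.56-fold, and no difference between responses passed the test. The 3 deprived MYAZ16.1e wells had no Epb41l4a count. LM1-LM, the highest line in control medium at 27.5 ± 0.532 CPM, lay above LM1 by 0.30 ± 0.08 on the log2 scale (adjusted p = 0.00713), without overlap, but not past the threshold when the second wells were left out (0.23, adjusted p = 0.14). Of the 11 other genes of the glycophorin and band 4.1 list, 7 could be tested, and 1 rose and 5 fell in Myc310, 1 and 4 in LM1 and 2 and 4 in LM1-LM, where 32.8% to 36.5% of all tested genes rose and 33.9% to 35.9% fell.

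Ptpn7 (chr1:135132700-135145317, plus strand) rose in the 3 lineage lines and, at far lower counts, in MYAZ16.1e. In Myc310 it went from 75.5, 73.4 and 71.7 to 124, 123 and 140 CPM (0.80 ± 0.04, adjusted p = 2.95e-16), and in LM1 wells from 78.8, 74.5 and 73.7 to 137, 129 and 128 CPM (0.83 ± 0.04, adjusted p = 9.20e-17) and in LM1-LM from 79.3, 84.9 and 80.7 to 129, 131 and 128 CPM (0.70 ± 0.04, adjusted p = 3.68e-15). The MYAZ16.1e wells held 7, 9 and 9 counts in control medium and 16, 17 and 12 counts after deprivation (0.90 ± 0.34, adjusted p = 0.0257), in a line where 26.6% of genes rose and 27.1% fell. The other 9 genes had at most 3 counts in each MYAZ16.1e well and were not counted as called there. Among them Gypc had 0 counts in the control wells and 0, 3 and 1 in the deprived wells. It passed the filter on low counts only through the lineage libraries. Its adjusted p of 0.0487 in the edgeR fit therefore cannot be read as a response in MYAZ16.1e. The Ptpn7 call rests on few reads and was lost without the first or the second wells and when MYAZ16.1e was fitted alone (log2 fold change 0.81 to 0.91, adjusted p 0.0671 to 0.129). In control medium the lines separated in the order Myc310 (73.6 ± 1.89 CPM) and LM1 (75.7 ± 2.77), whose wells overlapped, then LM1-LM (81.6 ± 2.89), LM3-LM (91.9 ± 2.56), LM3 (95.7 ± 0.468), LM2 (128 ± 2.64) and LM2-LM (142 ± 4.31), each above the one before. The related phosphatases Ptprr and Ptpn5 reached at most 28 counts in a lineage library, and the substrates Mapk3 and Mapk14 were expressed in both groups at overlapping levels.

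Srgn (chr10:62493833-62527451, minus strand) rose in all 3 lineage lines under deprivation. Its wells went from 31.8, 31.5 and 29.8 to 59.9, 60.0 and 58.5 CPM in Myc310 (0.92 ± 0.05, adjusted p = 3.21e-17). LM1 wells held 57.8, 55.3 and 59.7 CPM in control medium and 114, 114 and 118 CPM when deprived (1.04 ± 0.04, adjusted p = 7.01e-20), and LM1-LM wells 65.7, 59.4 and 61.3 CPM in control medium and 129, 127 and 129 CPM when deprived (1.09 ± 0.04, adjusted p = 1.13e-20). Deprived Myc310 cells thus held about as much Srgn as LM1 cells in control medium (59.5 ± 0.834 and 57.6 ± 2.19 CPM). In control medium Myc310 was the lowest line, with all its wells below those of the 6 derived lines. LM1, LM2-LM and LM1-LM followed at 57.6, 59.7 and 62.1 CPM with overlapping neighbours, and LM2 (118 ± 3.74), LM3 (127 ± 2.58) and LM3-LM (165 ± 6.63 CPM) lay above them, each apart from the next. Several other proteoglycans were expressed in MYAZ: the line means of Sdc4 and Hspg2 were at least 368 CPM in both groups, and of the 13 other proteoglycans in the list none had lineage means wholly above MYAZ, and Vcan and Gpc6 had them wholly below, against 12.6% and 16% of all genes above 3 counts.

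Ppic (chr18:53406332-53418115, minus strand) was the most abundant member and one of the least responsive. Deprivation raised it by 17.3% in Myc310 (98.9 to 106 CPM in control wells and 115 to 127 CPM in deprived wells, adjusted p = 8.80e-06), by 11.03% in LM1 (132 to 140 and 142 to 152 CPM, adjusted p = 9.00e-04) and by 14.5% in LM1-LM (127 to 133 and 142 to 148 CPM, adjusted p = 4.66e-05). These changes are small enough to depend on the scaling, and with upper-quartile factors the LM1 value was 0.07 on the log2 scale with an adjusted p of 0.0892. Line means ran from 88.9 ± 0.826 CPM in LM2 to 139 ± 2.69 CPM in LM2-LM. The other 14 cyclophilins were all expressed in MYAZ and in the lineage, Ppib, the other cyclophilin of the secretory pathway, at 233 to 278 and 205 to 261 CPM.

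Across the 10 genes, deprivation raised 4 (Epb41l4a, Srgn, Ptpn7 and Ppic) and lowered 4 (Evc, Evc2, Pcdh7 and Fbp2) in Myc310, where 32.8% of all tested genes rose and 33.9% fell. The same 4 rose in LM1 and in LM1-LM, and Gypc joined those that fell, giving 5, against 35.8% and 35.3% of all genes in LM1 and 36.5% and 35.9% in LM1-LM. All members that passed had wells that did not overlap, but the share of all tested genes with such wells was not counted, so this is not a trait of the members. The median absolute log2 fold change of the 10 genes was 0.815, 0.877 and 0.903 in the 3 lines, against 0.368, 0.454 and 0.479 over all tested genes. The 3 comparisons rest on separate control wells, but the lines descend from one another.

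**Figure D3:**
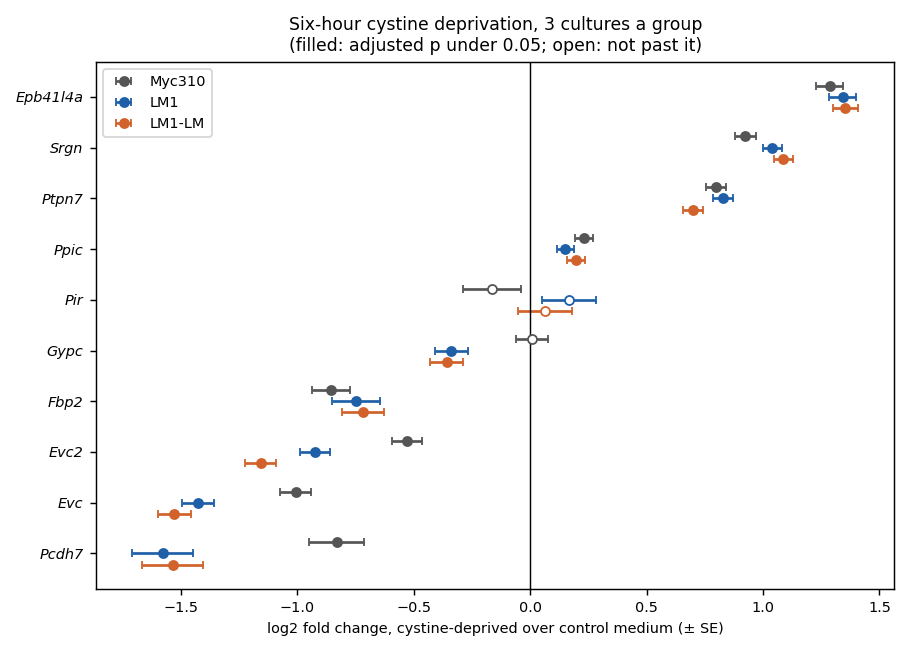
Log2 fold change (± standard error) of the 10 genes after 6 h of cystine deprivation against control medium in Myc310, LM1 and LM1-LM, with 3 wells per group; filled points passed an edgeR adjusted p of 0.05. Epb41l4a leads on the right at 1.29 to 1.35, Evc and Pcdh7 lie furthest left in LM1 and LM1-LM, Pir is open in all 3 lines, and Gypc is open in Myc310.

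Few of the genes differed between Myc310 and the lung-derived lines by the test. In the subtype model, which takes the 9 wells of LM lines as independent samples, Srgn was higher in LM than in Myc310 (101 ± 32.8 and 31.0 ± 1.07 CPM, log2 fold change 1.71 ± 0.38, adjusted p = 0.00473) and Fbp2 was lower (16.5 ± 3.83 and 52.7 ± 2.24 CPM, -1.68 ± 0.46, adjusted p = 0.0288). These are 1 gene in each direction, against 3.43% of 13795 genes higher and 1.51% lower, and for the other 8 the test was not passed. The wells did not overlap for either gene, but both calls were lost when counts were summed per line, so that 3 lines stood against 1, and when any 1 of the 3 wells of every line was left out (adjusted p 0.0835 to 0.0858 for Srgn and 0.208 to 0.327 for Fbp2). The Fbp2 call was also lost without LM3 (-1.48, adjusted p = 0.144) and in DESeq2 (adjusted p = 0.0685). In Srgn and Fbp2 the 3 LM lines deviated from Myc310 in the same direction, Srgn by 1.86-fold in LM1, 3.80-fold in LM2 and 4.10-fold in LM3, and Fbp2 to 0.349, 0.367 and 0.22 of the Myc310 level.

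Between LM-LM and LM only Fbp2 passed (64.2 ± 59.8 and 16.5 ± 3.83 CPM, 9 wells each, 1.94 ± 0.36 on the log2 scale, adjusted p = 0.00866), against 0.268% of all genes higher and 0.5% lower, and the 2 sets of wells overlapped. The call rests on LM2-LM: without that line the value was 0.56 (adjusted p = 0.160). It was also lost with counts summed per line (adjusted p = 1) and without any 1 of the 3 wells of every line (1.89 to 2.00, adjusted p 0.304 to 0.411). Within the LM1 descent, where wells of 1 line were set against wells of 1 other, Fbp2 was higher in LM1-LM than in LM1 by 0.70 ± 0.08 (adjusted p = 2.69e-08), Epb41l4a by the 0.30 given above and Ptpn7 by 0.11 ± 0.04 (adjusted p = 0.0422), and none was lower (background 5.64% higher and 5.26% lower). The Ptpn7 call did not hold in most alternative fits (adjusted p up to 0.396).

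**Figure D4:**
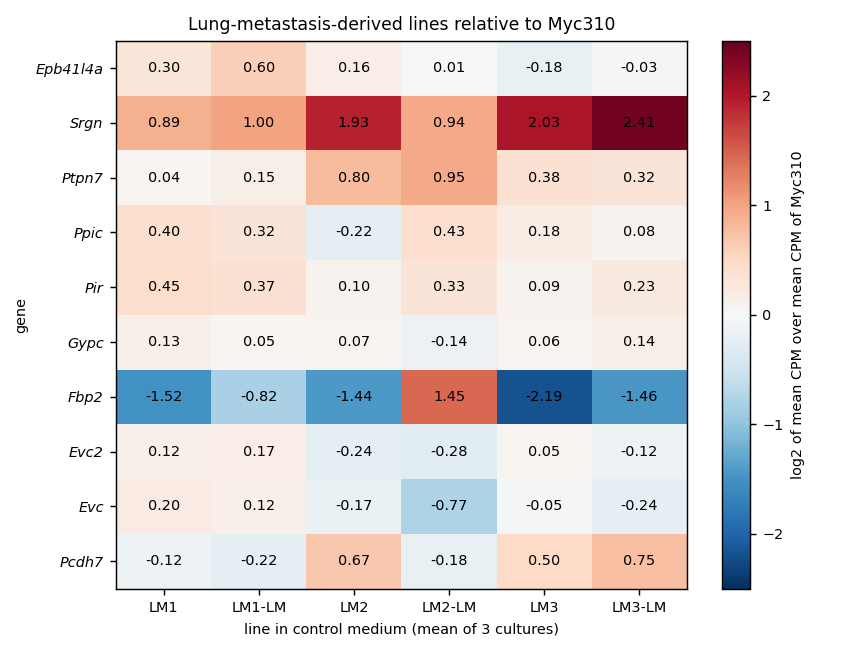
Log2 ratio of the mean CPM of each lung-derived line (columns, control medium, 3 wells each) to that of Myc310 for the 10 genes (rows), with colour from blue (lower) to red (higher) and the value printed in each cell. Srgn is above Myc310 in all 6 lines, Fbp2 is below it in 5 and above it in LM2-LM, and Gypc stays near 0.

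With MYAZ and the lineage both included, the genes whose control-medium line means ran most like a member's (Pearson r of log2 CPM plus 1 over 11 lines) were mostly other genes with the same contrast. Zfhx4 was among the nearest 2 for 6 members (r = 0.996 to 0.999 with Ppic, Gypc, Evc, Evc2, Pir and Epb41l4a) and Uggt2 for Ppic, Pir and Epb41l4a. Tmem47, silent in MYAZ, was the nearest to Evc (r = 0.996). Srgn ran most like Twist1 and Il18rap (r = 0.988 and 0.988), which MYAZ lines also expressed, Ptpn7 like Tmem156 and Nid1, Pcdh7 like Nudt10 and Rhox4a2, and Fbp2 like Apeh and Ero1a (r = 0.993 and 0.980). Within the 7 lineage lines alone, which share a parent, r between members ran from -0.886 for Gypc and Fbp2 to 0.852 for Evc and Evc2.

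Several annotated neighbours were expressed in MYAZ where the member was silent or nearly so. Vps26a and Kif1bp beside Srgn, Arl8a beside Ptpn7, Snx24 beside Ppic, Apc beside Epb41l4a and Stim2 beside Pcdh7 were expressed in all lines of both groups, and their MYAZ line means lay between 16.7 and 118 CPM. Of these, Kif1bp (28.7 to 33.1 CPM in MYAZ and 46.6 to 53.4 CPM in the lineage) and Arl8a (35.7 to 37.4 and 38.2 to 42.7 CPM) had line means wholly higher in the lineage, as did Vegfd beside Pir. Lgr6, on the other side of Ptpn7, was wholly lower in the lineage (2.31 to 10.5 CPM) than in MYAZ (11.2 to 14.1 CPM). Tslp beside Gypc was low in MYAZ (0.195 to 0.813 CPM) and wholly higher in the lineage (2.01 to 2.90 CPM). Prdm6 beside Ppic, Nrep beside Epb41l4a, G6pd2 beside Pcdh7 and Fbp1 beside Fbp2 had at most 5 counts in any lineage library, where the member was on.

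Because Srgn, Ptpn7 and Gypc are typical of blood cells, markers of other cell types were examined in the same control libraries. The 10 leukocyte markers measured summed to 0.704 to 1.87 CPM in the lineage and 0.1 to 1.44 CPM in MYAZ, Ptprc (CD45) had at most 1 count in a lineage library, and Itgam had line means of 0.492 to 1.08 CPM in the lineage and 0.0418 to 0.0496 CPM in MYAZ. The 4 erythroid markers summed to at most 0.609 CPM in the lineage and 0.1 to 2.43 CPM in MYAZ. The mast cell and platelet markers summed to 1.60 to 88.0 CPM in the lineage and 2.11 to 4.18 CPM in MYAZ. Of these, Kit and Mcpt4 were at 0 throughout, whereas Pf4 (platelet factor 4) was at 83.7 ± 2.99 CPM in LM2-LM and 41.1 CPM in LM2 and at most 2.43 CPM in the other 5 lineage lines. The line means of Ptpn7 were highest in these same lines. In LM2-LM, however, Gypc was at its lowest (31.6 CPM) and Srgn was at 59.7 CPM, against 165 CPM in LM3-LM. Ppbp, another platelet gene, had line means of 0.403 to 2.69 CPM in the lineage and 0.112 to 0.252 CPM in MYAZ, and like Srgn it was highest in LM3-LM. Itga2b, also a platelet gene, ran the other way, with 0.134 to 0.956 CPM in the lineage and 2.17 to 3.21 CPM in MYAZ. Fibroblast markers summed to 1.73 to 217 CPM in the lineage and 7.46 to 98.4 CPM in MYAZ, with Col3a1 at up to 199 CPM in a lineage line and Pdgfra and Pdgfrb at up to 48.3 and 33.4 CPM in a MYAZ line, and the part of Itgam, Pf4, Ppbp, Itga2b and these genes in the results was not tested. Endothelial and alveolar markers summed to at most 20.3 and 2.97 CPM in any of these libraries. The mammary epithelial markers summed to 1020 to 2460 CPM in the lineage and 340 to 1180 CPM in MYAZ, where Krt8 (833 to 1700 CPM in the lineage and 219 to 794 CPM in MYAZ) and Krt18 were well expressed. Epcam and Cdh1 had at most 21 and 6 counts in any library, so these defining markers of epithelium were nearly absent from both groups.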

How the data were processed

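Messenger RNA from 45 wells (11 lines, 15 groups of 3) was selected by poly(A), made into strand-specific libraries and sequenced as paired ends. The authors deposited whole-number read counts per gene, not normalized, made per the study's methods with STAR alignment and RSEM quantification on GRCm38 in an nf-core pipeline. The members and the gene lists were chosen with earlier results of these data known, and the genes named are all members, the list genes, the nearest coding genes and the 2 most similar genes per member, with the markers of other cell types. Tfpi, a gene with the same on and off pattern, and Crmp1, which overlaps Evc, were named after their values were seen.

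Here the counts were scaled by TMM and tested with edgeR 4.0.16 (quasi-likelihood, R 4.3.3) after filterByExpr, with Benjamini-Hochberg adjustment over all genes (two-sided, threshold 0.05). Deprivation was fitted on the 24 libraries of the 4 deprived lines, with interaction contrasts. LM, LM-LM and Myc310 were compared on the 30 control libraries. CPM use TMM factors over all 45 libraries, and the floor for a gene at 0 is 3 counts over the group. Members with at most 3 counts in each library compared were not counted as called. MYAZ against the lineage was not tested, since it chose the genes. Wells of a line are not independent lines, so p-values measure the spread between these wells, which may be technical. Depth ran from 19517859 to 29019988 counts per library (median 22899900). Wells of a group differed by more than sampling noise (chi-square per degree of freedom 2.23 to 6.43 over 45 pairs). The scripts were tested on simulated counts. Alternatives were other scalings (RLE, upper quartile), no filter, a replicate block, DESeq2 1.42.0, fewer libraries or lines, and counts summed per line. Gene positions are from GENCODE (GRCm38) and promoter sequences from RefSeq (GRCm38.p6).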

Additional observations from a re-analysis of the deposited data

Results flagged for a closer look

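Fbp2 in control medium averaged 144 CPM in LM2-LM, and on the linear CPM scale its gap to the next of the 7 lineage lines was 0.688 of the whole range, above Dixon's 95% critical value of 0.568. The check was not run on the log2 scale, where LM2-LM stood at 1.45 and LM3, the lowest line, at -2.19 relative to Myc310. Fbp2 was the only one of the 10 genes with a line that stood apart in this way, and chance alone marks about 1 in 20 such sets of lines. That rate takes the lines as independent and normally distributed, but these lines share a parent.

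The response to cystine deprivation differed between LM1 and Myc310 by the interaction test for 4 of the 10 genes, out of 20 response differences tested. All 4 were lower in LM1, where 9.96% of the 13400 genes tested had a lower and 14.5% a higher response. The difference, LM1 minus Myc310, was -0.75 on the log2 scale for Pcdh7, -0.42 for Evc, -0.40 for Evc2 and -0.35 for Gypc, whose call was lost without the first wells (adjusted p = 0.0567) or the third wells (adjusted p = 0.0911).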

How the results depend on the processing

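Of 381 values of single members under alternative settings, 350 kept their direction and side of the threshold, 27 lost the threshold and 4 changed sign. The sign changes concerned values near 0: Gypc in deprived Myc310 (-0.0234 with upper-quartile scaling, -0.0106 to 0.0262 leaving out wells) and Pir in deprived LM1-LM (-0.0194 with upper-quartile scaling, -0.0978 to 0.192 leaving out wells). Of 558 values of Hedgehog and NRF2 list genes, 544 kept their call and 14 lost it. The number of members called was 0 for deprived MYAZ16.1e when fitted alone and 0 to 1 leaving out wells. It was 1 with DESeq2 and 0 with counts summed per line for LM against Myc310 (0 to 3 leaving out wells or lines). It was 0 with counts summed per line for LM-LM against LM (0 to 3 leaving out wells or lines), and 1 to 3 leaving out wells for LM1-LM against LM1. Summing per line leaves fewer samples.

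The replicate numbers did not pair the wells (12 pairs, correlation of deviations -0.0566 to 0.0522, 0 over 0.1). With a replicate block the members called for LM1-LM against LM1 went from 3 to 2, the genes called for LM-LM against LM from 106 to 68, and the number of members called changed in no other comparison. Among all genes, the LM-LM against LM count was 65 without the filter, 236 with DESeq2, 0 summed per line and 0 to 2063 leaving out wells or lines. LM against Myc310 went from 681 to 2 summed per line and to 188 to 1495 leaving out wells or lines. The LM1-LM minus LM1 response went from 103 to 218 without the filter, 182 with DESeq2 and 4 to 44 leaving out wells. Leaving out wells gave 2035 to 2438 for the LM1 minus Myc310 response (3278 in full) and 885 to 973 for LM1-LM against LM1 (1504 in full). Without a test, the lineage mean in control libraries only was 31.0 CPM for Evc2 and 20.1 CPM for Epb41l4a, against pooled levels of 27.3 and 30.5 CPM with the deprived libraries. Upper-quartile scaling moved the median of all genes by at most 0.08 on the log2 scale. Counts under the floor of 3 limit what can be said of MYAZ.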
